A study of Mus musculus with 12 samples.

Results

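The genes described here encode the machinery that brings nuclear-encoded proteins into mitochondria. They are the protein-coding genes whose symbol begins with *Tomm* or *Timm* and a digit, together with *Hspd1*, *Hspe1*, *Hspa9*, *Grpel1*, *Grpel2*, *Pam16*, *Dnajc19*, *Samm50*, *Pmpca*, *Pmpcb* and *Chchd4*. This gives 36 of the 42450 genes in the count table, of which 35 passed the filter on low counts, and *Tomm20l* had 0 counts in all 12 libraries. All groups are wild-type E14tg2a.4 cells, a male mouse embryonic stem cell (mESC) line, grown on gelatin with the cytokine LIF and held in serum-free ESGRO medium before collection. The cells received 50 nM siRNA against *Srrm2*, which encodes a nuclear speckle splicing factor (Srrm2-KD), or against firefly luciferase GL2 as the control (Gl2-KD). They were collected at 24 h, or transfected again with the same siRNA and collected at 72 h. Both siRNAs and both times were present in each of 3 experiments, so that each of the 4 groups has 3 libraries. All groups share the transfection reagent, and the effect is a transient and partial knockdown in 1 cell line. The study describes the 3 experiments as independent biological replicates. Differences in level between experiments were taken out by a block term in the main fit. Its p-values therefore measure how far differences between groups varied from experiment to experiment, within 1 cell line.

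Most mitochondrial proteins are made in the cytosol and pass the outer membrane through the TOM complex. From there, precursors with a cleavable presequence cross the inner membrane through TIM23 and are pulled in by a motor built around the matrix Hsp70, carrier proteins are handed by the small TIM chaperones to TIM22, and outer membrane barrel proteins go to the sorting and assembly machinery. Presequences are then removed by the processing peptidase, and the matrix chaperonin folds many of the arriving proteins. Most of these genes are needed in every dividing cell, embryonic stem cells included.

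Libraries held 73933196 to 153343831 estimated counts, so that members other than *Tomm20l* and *Timm21* had at least 261 counts in every library. Levels are CPM, the count relative to library size after TMM scaling between libraries. *Srrm2* was at 43.0% of its Gl2-KD level at 24 h (31.0% to 56.7% in single experiments) and at 44.6% at 72 h (37.9% to 49.1%), lower in 3 of 3 experiments at each time. Its adjusted p was 0.0663 and 0.0991 in edgeR and 5.03e-11 and 1.72e-09 in DESeq2, so edgeR's test did not call the targeted gene itself. All 8 embryonic stem cell markers were present, with a summed level of 4372 to 6853 CPM, while the 5 primitive endoderm markers summed to 1.69 to 3.03 CPM and the 4 mesoderm markers to 2.78 to 7.38 CPM. Neural markers (45.2 to 62.8 CPM), trophoblast markers (46.0 to 95.3 CPM) and fibroblast markers (3.89 to 24.6 CPM) were also low, and no marker of these lists was at 0 in all libraries. Values of a group are given for experiments 1, 2 and 3 in that order. The libraries of experiment 1 stood apart for most members, as described after the levels.

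Promoter windows of 300 bases, from 250 before to 50 after each annotated start, were taken from RefSeq (GRCm38.p6) for 31 of the 36 members. The 4 below are shown because they belong to the member with the largest difference after *Srrm2* knockdown (*Tomm34*), to the chaperonin genes that share a promoter (*Hspe1* and *Hspd1*), and to a pair of motor genes, of which 1 holds every motif marked (*Grpel1*) and 1 is the member with the largest change over time under *Srrm2* siRNA (*Pam16*). They are written 5′ to 3′ on the gene's strand. Capitals mark CCGGAAG, the core bound by ETS family factors such as GABP, GGGCGG, the GC box of Sp family factors, and GCATGCGC, the core of the NRF1 site, on either strand.
*Tomm34*, chr2:164071120-164071419, minus strand: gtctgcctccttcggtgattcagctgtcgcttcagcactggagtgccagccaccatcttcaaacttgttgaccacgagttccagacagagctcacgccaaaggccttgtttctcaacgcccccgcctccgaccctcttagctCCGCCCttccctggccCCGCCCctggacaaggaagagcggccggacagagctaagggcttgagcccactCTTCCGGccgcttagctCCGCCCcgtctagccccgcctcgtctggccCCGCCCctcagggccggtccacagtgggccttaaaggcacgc
*Hspe1*, chr1:55087898-55088197, plus strand: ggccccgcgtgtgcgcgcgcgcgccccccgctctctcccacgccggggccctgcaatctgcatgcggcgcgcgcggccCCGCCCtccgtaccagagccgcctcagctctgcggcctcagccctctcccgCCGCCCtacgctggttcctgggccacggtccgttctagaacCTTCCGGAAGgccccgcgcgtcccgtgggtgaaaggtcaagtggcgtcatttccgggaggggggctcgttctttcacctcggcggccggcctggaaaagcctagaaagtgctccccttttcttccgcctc
*Grpel1*, chr5:36464935-36465234, plus strand: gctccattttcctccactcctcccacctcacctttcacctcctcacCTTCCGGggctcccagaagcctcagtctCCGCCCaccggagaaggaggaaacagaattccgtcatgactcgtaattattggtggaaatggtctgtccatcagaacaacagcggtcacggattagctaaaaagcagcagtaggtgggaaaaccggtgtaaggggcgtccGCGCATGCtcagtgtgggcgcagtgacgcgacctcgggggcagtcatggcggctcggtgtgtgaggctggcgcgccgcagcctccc
*Pam16*, chr16:4624897-4625196, minus strand: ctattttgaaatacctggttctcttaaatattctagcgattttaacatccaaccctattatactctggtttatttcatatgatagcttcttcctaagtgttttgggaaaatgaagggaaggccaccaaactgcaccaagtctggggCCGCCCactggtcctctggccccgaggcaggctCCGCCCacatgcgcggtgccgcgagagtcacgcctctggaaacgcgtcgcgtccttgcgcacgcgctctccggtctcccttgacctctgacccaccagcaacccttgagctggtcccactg

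CCGGAAG occurred in the windows of 14 of the 31 members, among them *Tomm34*, *Tomm22*, *Tomm70a*, *Timm23*, *Grpel1*, *Pmpca*, *Pmpcb*, *Hspd1* and *Hspe1*. It occurs in 8.86% of all 32851 windows and in 15% of the 15298 windows of tested protein-coding genes. GGGCGG was found in 18 members (35.7% of all windows, 59.1% of windows of tested coding genes) and GCATGCGC in *Grpel1* and *Timm13* (2.71% and 4.6%). ATGGCGGC, the YY1 core that often lies over a start codon, was found in *Grpel1*, *Pmpcb*, *Samm50*, *Timm44* and *Timm50* (2.24% and 4.01%). CCAAT occurred in 11 members (37.4% and 37.4%), CACGTG, the E-box used by Myc, in 6 (7.15% and 9.38%), TATAAA in 3 (13.6% and 7.8%), and TGACGTCA, the cAMP response element, in 0 (1.79% and 2.73%). These are matches of letters on either strand, and no binding was measured. The window of *Hspe1* shares 285 bases with the window of 1 of the 2 *Hspd1* starts, the genes point away from each other there, and the annotated genes overlap by 112 bases.

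Levels differed over a wide range between members. Per kilobase of the median coding transcript, the chaperonin subunit *Hspd1* stood first in Gl2-KD at 24 h with 1580.2 CPM per kb, followed by its co-chaperonin *Hspe1* (579.7), the matrix Hsp70 *Hspa9* (315) and the channel subunit *Timm23* (308). With the longest annotated transcript as the length, *Hspd1* was at 563, *Hspe1* at 465 and *Hspa9* at 315 CPM per kb and *Timm23* was at 204, in the same order. *Timm17a* depended most on the length chosen, at 154 and 13.5 CPM per kb. The lowest members were *Timm8a2* (4.47 with either length), *Timm21* (0.748 and 0.722) and *Tomm20l* (listed at 0), the last a paralogue of the receptor *Tomm20*.

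In the TOM complex, the receptors *Tomm20* (341 ± 65.6 CPM, SD, n = 3, Gl2-KD at 24 h), *Tomm70a* (362 ± 15.6) and *Tomm22* (158 ± 43.9) and the channel *Tomm40* (220.3 ± 73.4) were accompanied by the small subunits *Tomm7* (143 ± 44.7), *Tomm6* (131 ± 43.3) and *Tomm5* (87.1 ± 29.7). Other *Tomm* genes were the cytosolic co-chaperone *Tomm34* (111 ± 13.2) and the channel paralogue *Tomm40l* (39.6 ± 13.3). The small TIM chaperones, which escort hydrophobic precursors through the intermembrane space, were at 95.2 ± 27.7 (*Timm8a1*), 51.7 ± 16.2 (*Timm8b*), 46.4 ± 21.9 (*Timm13*), 30.5 ± 10.9 (*Timm10*), 16.5 ± 4.78 (*Timm10b*), 15.9 ± 6.70 (*Timm9*) and 4.08 ± 0.899 CPM (*Timm8a2*). These values are per library size and not per length, so they compare groups and not genes.

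The carrier translocase had *Timm22* at 26.7 ± 8.92 CPM and *Timm29* at 35.9 ± 3.97 CPM in the same libraries. TIM23 had its channel *Timm23* at 239 ± 60.2 CPM, the paired subunits *Timm17a* and *Timm17b* at 98 ± 18.3 and 41.3 ± 11, the presequence receptor *Timm50* at 97.6 ± 29.3, and *Timm21*, which links it to the outer membrane and the respiratory chain, at 1.81 ± 0.475. In the motor, *Hspa9* was at 961 ± 133, its nucleotide exchange factors *Grpel1* and *Grpel2* at 121 ± 32.8 and 42.8 ± 5.83, the tether *Timm44* at 81.3 ± 22.7, and the J-domain pair *Dnajc19* and *Pam16* at 37.3 ± 9.02 and 17.1 ± 7.47 CPM. The barrel insertase *Samm50* was at 211 ± 54.1, the oxidoreductase *Chchd4* at 105 ± 37.9, the peptidase subunits *Pmpca* and *Pmpcb* at 164 ± 4.45 and 86.5 ± 17.2, and the chaperonin genes *Hspd1* and *Hspe1* at 1364 ± 264 and 449 ± 146 CPM. In Gl2-KD at 24 h, *Pmpca* and *Tomm70a* varied little between experiments for their level and *Timm13* and *Pam16* much. *Tomm70a* varied more in Gl2-KD at 72 h (363 ± 59.5 CPM). The map of levels by library shows experiment 1 below the others for most genes.

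**Figure D1:**
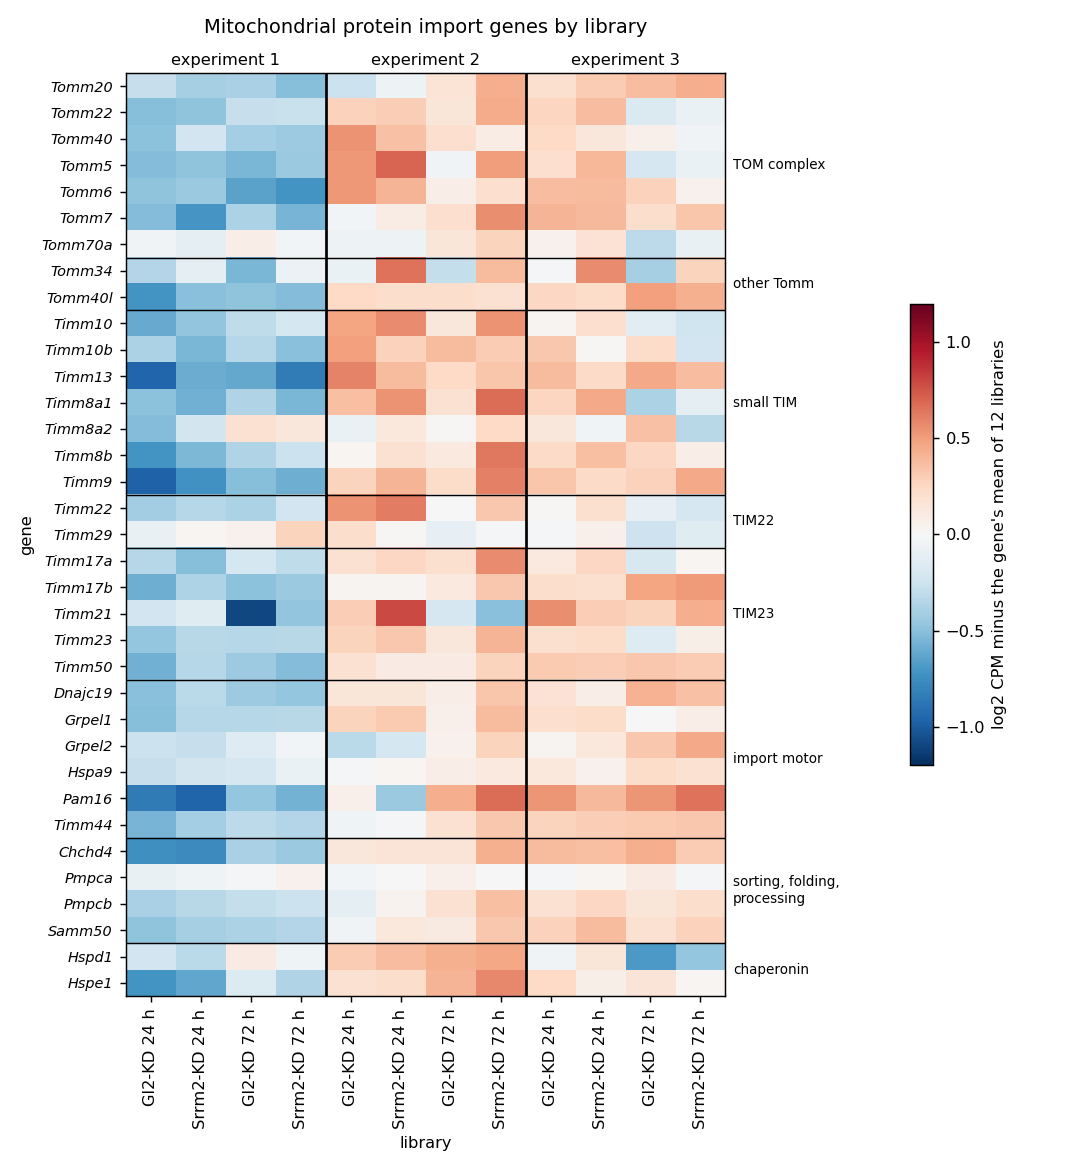
Each row is 1 of the 35 tested genes, grouped by role, and each column 1 of the 12 libraries, grouped by experiment; colour gives log2 CPM minus that gene's mean over the 12 libraries. The 4 libraries of experiment 1 are below the gene's mean for most genes, with *Timm13*, *Pam16* and *Timm9* the lowest.

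Most import genes were lower in experiment 1 than in experiments 2 and 3 under both siRNAs and at both times. For 26 of 35 members the library of experiment 1 was below both others in all 4 groups, and for 0 members it was above both in all 4. Over all genes tested, 20.2% were below and 23.2% above in this way. The mean difference over the 4 groups had a median of -0.61 on the log2 scale for the members and of -0.03 for the 17451 genes with counts in every library. No test is given, since experiment 1 was singled out after its values were seen, and the experiment is a block in the comparisons below.

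The difference was largest for the small TIM gene *Timm13*, which was at 21.6, 63.2 and 54.3 CPM in Gl2-KD at 24 h and at 27.6, 54.4 and 48.9 in Srrm2-KD at 24 h. The later Gl2-KD libraries held 27.2, 49.3 and 57.2 CPM and the later Srrm2-KD libraries 23.3, 52.6 and 54.0 CPM, which puts experiment 1 at 45.9% of the other experiments on average. *Pam16* (47.8%), *Timm9* (48.4%), *Chchd4* (54.4%), *Tomm6* (55.4%) and *Tomm40l* (56.0%) followed. At the other end, *Pmpca* (97.0%), *Tomm70a* (97.3%) and *Timm29* (107%) were close to the other experiments, and *Hspd1* was at 87.6%. Every role held genes that stood apart, among them 1 of 2 in TIM22 and in the chaperonin, 4 of 5 in TIM23, 5 of 6 in the motor, 6 of 7 in the TOM complex, and both *Tomm34* and *Tomm40l*.

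Short transcripts were lower in experiment 1 in general. Among protein-coding genes with a median coding transcript under 1000 nt, the median difference was -0.45 and 1187 of 2732 genes were below in all 4 groups, whereas genes of 1000 nt or more had a median of 0.03 and 2275 of 12820 below. Members of both length classes were lower, with medians of -0.68 for the 14 short ones and -0.59 for the 21 long ones. The summed level of fibroblast markers was 3.89 to 7.57 CPM in experiment 1, 10.1 to 11.9 in experiment 2 and 16.9 to 24.6 in experiment 3. Mean levels of single fibroblast markers ran from 0.00870 to 11.5 CPM, so a single gene held most of this sum, and 3 of the 5 passed the filter. The sum of embryonic stem cell markers was 4372 to 5476, 5339 to 6245 and 5718 to 6853 CPM. Mitochondrially encoded protein genes took 3.80% to 4.17% of counts in experiment 1, 2.69% to 3.36% in experiment 2 and 2.32% to 3.21% in experiment 3, while the import genes took 0.506% to 0.546%, 0.667% to 0.728% and 0.580% to 0.679%. The part of transcript length, other cells or the mitochondrial share in the lower levels was not tested. In bulk RNA, fewer cells with a transcript and less of it per cell cannot be told apart.

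**Figure D2:**
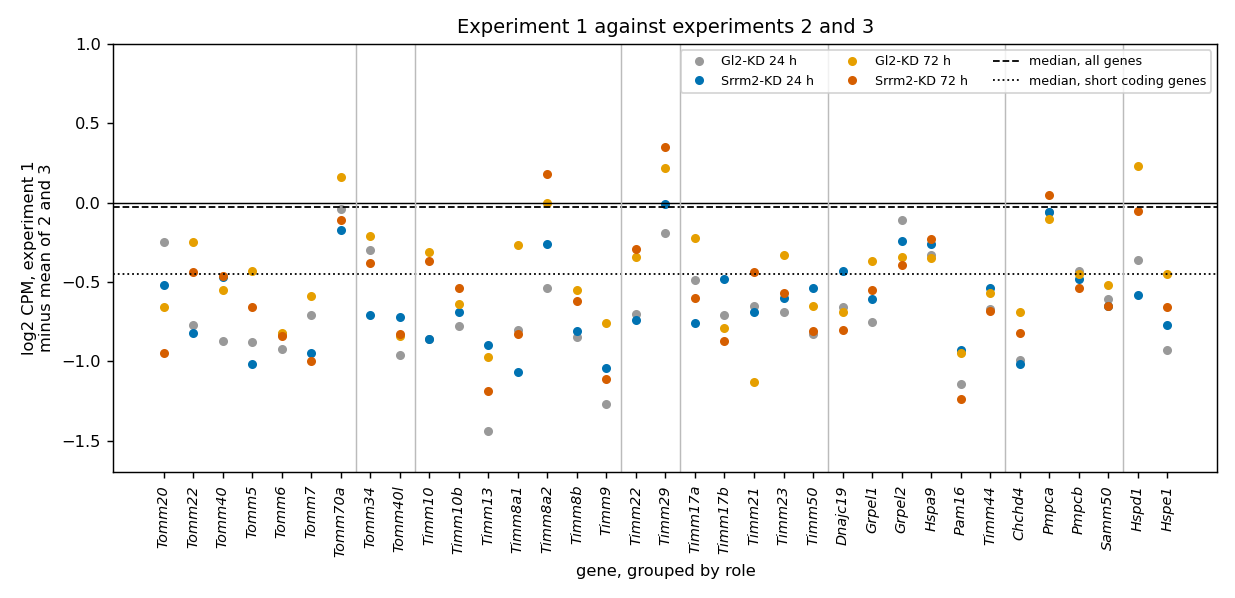
The vertical axis gives log2 CPM of experiment 1 minus the mean of experiments 2 and 3, with 1 point per group for each tested gene; the dashed line is the median over all genes (-0.03) and the dotted line that of coding genes under 1000 nt (-0.45). Points of *Timm13*, *Pam16* and *Timm9* lie lowest, and those of *Pmpca*, *Tomm70a* and *Timm29* lie near 0.

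The comparison of Srrm2-KD with Gl2-KD at 24 h asks whether the import genes respond early to loss of *Srrm2*. *Tomm34*, a cytosolic co-chaperone that binds Hsp70 and Hsp90 and is thought to keep precursors import-competent, was higher in all 3 experiments, and the other members differed by at most 0.24 on the log2 scale. With edgeR's quasi-likelihood test and Benjamini-Hochberg adjustment over 19410 genes, 0 of 35 members were called at an adjusted p below 0.05, as were 0 of all genes (0%). At an unadjusted p below 0.05 there was 1 member against 2.62% of all genes, and DESeq2 called 1 member, *Tomm34*, against 0.129% of the genes it tested. The members' median log2 fold change was 0.05, beside 0.01 over all genes, with 12 members higher in 3 of 3 experiments (17.3% of all genes) and 2 lower in 3 of 3 (15.4%). The median was 0.01 without experiment 1 of Gl2-KD at 24 h and 0.10 without experiment 3 of that group, so the small shift of the members as a whole depended on single control libraries.

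*Tomm34* was at 96.1, 116 and 121 CPM in Gl2-KD and at 114, 192 and 181 CPM in Srrm2-KD at 24 h. Srrm2-KD was the higher library in each experiment, but its lowest value lay within the control range. Of the members, 0 had groups that did not overlap at 24 h, against 3.44% of all genes. The log2 fold change was 0.52 ± 0.11 (standard error) with an adjusted p of 1.00 in edgeR and 0.0410 in DESeq2. *Timm10b*, a small TIM that sits on TIM22, had the next smallest p. It was at 11.1, 20.3 and 18.1 CPM in Gl2-KD and 9.91, 17.5 and 14.6 CPM in Srrm2-KD, a log2 fold change of -0.23 ± 0.12 with an adjusted p of 1.00 in edgeR.

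The others named for 24 h were *Pam16* (-0.24 ± 0.16), *Samm50* (0.12 ± 0.09), *Timm8b* (0.16 ± 0.14), *Tomm5* (0.14 ± 0.13), *Timm10* (0.13 ± 0.15) and *Pmpcb* (0.09 ± 0.10), all with an adjusted p of 1.00 in edgeR. Each went the same way in 3 of 3 experiments, and none was called. They were named for their small p from the same experiments, so this agreement is not separate evidence. By role, the median log2 fold change was 0.02 in the TOM complex (4 of 7 genes above 0), 0.10 in the small TIM genes (5 of 7), 0.07 in TIM23 (5 of 5), 0.04 in the motor (5 of 6), 0.06 in the sorting, oxidative folding and processing genes (3 of 4) and 0.02 in the chaperonin (1 of 2). In TIM22 it was 0.05 (1 of 2), and for *Tomm34* and *Tomm40l* together 0.29.

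At 72 h, after the second transfection, *Tomm34* was again the member with the largest difference and the only one whose Srrm2-KD libraries all lay above the Gl2-KD libraries. With edgeR, 0 of 35 members were called, as were 0 of all genes (0%), with 1 member at an unadjusted p below 0.05 against 12.9% of all genes. DESeq2 called 1 member, *Tomm34*, against 3.38% of the genes it tested. The members' median log2 fold change was 0.10, beside -0.02 over all genes, but the median was -0.03 in experiment 1, 0.22 in experiment 2 and 0.06 in experiment 3. In all, 10 members were higher in 3 of 3 experiments (18.8% of all genes), 3 were lower in 3 of 3 (23.1%), and 1 had groups that did not overlap (6.66%). The trophoblast markers summed to 84.8 to 95.3 CPM in Gl2-KD and to 46.0 to 71.9 CPM in Srrm2-KD at 72 h. Mean levels of single trophoblast markers ran from 0.0715 to 70.1 CPM, so a single gene held most of this sum. The part of these markers in the members' values was not tested.

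*Tomm34* (chr2:164053540-164071169, minus strand, GRCm38) was at 83.5, 100.2 and 92.7 CPM in Gl2-KD and at 117, 159.6 and 147 CPM in Srrm2-KD at 72 h. The lowest Srrm2-KD library stood above the highest Gl2-KD library, and the difference had the same direction as at 24 h in all 6 pairs of libraries. The log2 fold change was 0.61 ± 0.11, which is 152% of the control level, with an adjusted p of 0.124 in edgeR, 0.000476 in DESeq2 and 0.0818 in limma-voom. The edgeR call depended on the fit. It was made in 4 of 24 edgeR fits. In a fit of the 72 h libraries by themselves the adjusted p was 0.0259, with 1.78% of all genes called. Where every combination of experiment and time had its own block term it was 0.0242 (3.73%). Without the filter on low counts it was 0.0453, with 42 of 29168 genes called. Without experiment 1 of Srrm2-KD at 24 h it was 0.0248, with 42 of 19921 genes called. Without the experiment as a block the adjusted p was 1.00 with a log2 fold change of 0.62 ± 0.21, and without single libraries the log2 fold change ranged from 0.54 to 0.68. Its difference between the times, 0.08, was not called.

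*Tomm34* overlaps the kinase gene *Stk4*, on the other strand, by 848 bases, and *Stk4* had log2 fold changes of -0.16 ± 0.13 at 24 h and -0.04 ± 0.13 at 72 h (adjusted p = 1.00 and 0.914, edgeR). The libraries were made with a stranded kit, but no source used here states whether the counting used strand. No other gene outside the overlap held a near-identical copy of the *Tomm34* transcript.

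**Figure D3:**
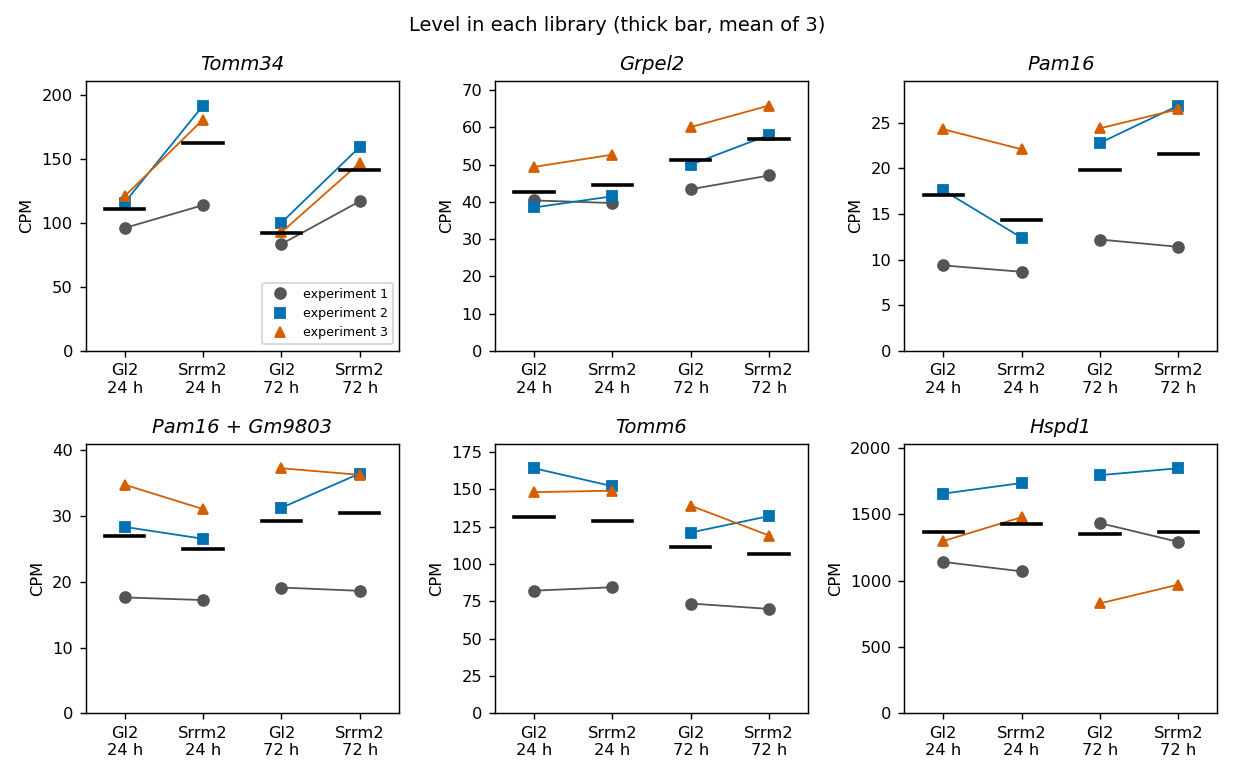
CPM in each library for *Tomm34*, *Grpel2*, *Pam16*, the sum of *Pam16* and its copy *Gm9803*, *Tomm6* and *Hspd1*; symbols mark the experiment, thin lines join Gl2-KD and Srrm2-KD libraries of 1 experiment and time, thick bars are means of 3 and all axes start at 0. All 6 lines of *Tomm34* rise from Gl2-KD to Srrm2-KD, and *Hspd1* in experiment 3 is lower at 72 h than at 24 h.

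*Tomm5*, a small subunit that stabilises the TOM complex, was at 54.3, 77.3 and 69.4 CPM in Gl2-KD and 58.5, 113 and 75.6 CPM in Srrm2-KD at 72 h. Most of its log2 fold change of 0.25 ± 0.13 came from experiment 2 (0.55, beside 0.11 and 0.12), and the adjusted p was 0.445 (edgeR). *Timm10b* had a log2 fold change of -0.22 ± 0.12 and *Timm23* of 0.17 ± 0.10. *Grpel2* (0.16 ± 0.09), *Grpel1* (0.13 ± 0.10), *Samm50* (0.11 ± 0.09) and *Timm9* (0.15 ± 0.13) completed the 8 smallest p-values, with adjusted p from 0.471 to 0.649. For the abundant members the log2 fold changes were 0.02 ± 0.19 for *Hspd1*, -0.06 ± 0.13 for *Hspe1*, 0.04 ± 0.08 for *Hspa9* and 0.08 ± 0.14 for *Tomm20*. A p that misses the threshold does not show that these genes had the same level under both siRNAs. Without single libraries or single experiments the log2 fold change ranged from -0.21 to 0.21 for *Hspd1* and from -0.18 to 0.05 for *Hspe1*.

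By role at 72 h, the medians were 0.08 in the TOM complex (5 of 7 above 0), 0.13 in the small TIM genes (4 of 7), 0.13 in TIM22 (2 of 2), 0.16 in TIM23 (5 of 5), 0.07 in the motor (6 of 6), 0.06 in the sorting, oxidative folding and processing genes (3 of 4) and -0.02 in the chaperonin (1 of 2). For *Tomm34* and *Tomm40l* together it was 0.28. The comparisons at 24 h and 72 h have no libraries in common. The effect at 72 h minus that at 24 h was called for 0 of 35 members and 0 of all genes (0%) in edgeR, with 0 members at an unadjusted p below 0.05 (1.64% of all genes) and 0 in DESeq2 (0.0103%). The smallest adjusted p of a member was 1.00, and that of *Pam16*, the largest in size, was 0.33 ± 0.22 by its own counts and 0.15 ± 0.14 with those of its near-identical copy *Gm9803* added.

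**Figure D4:**
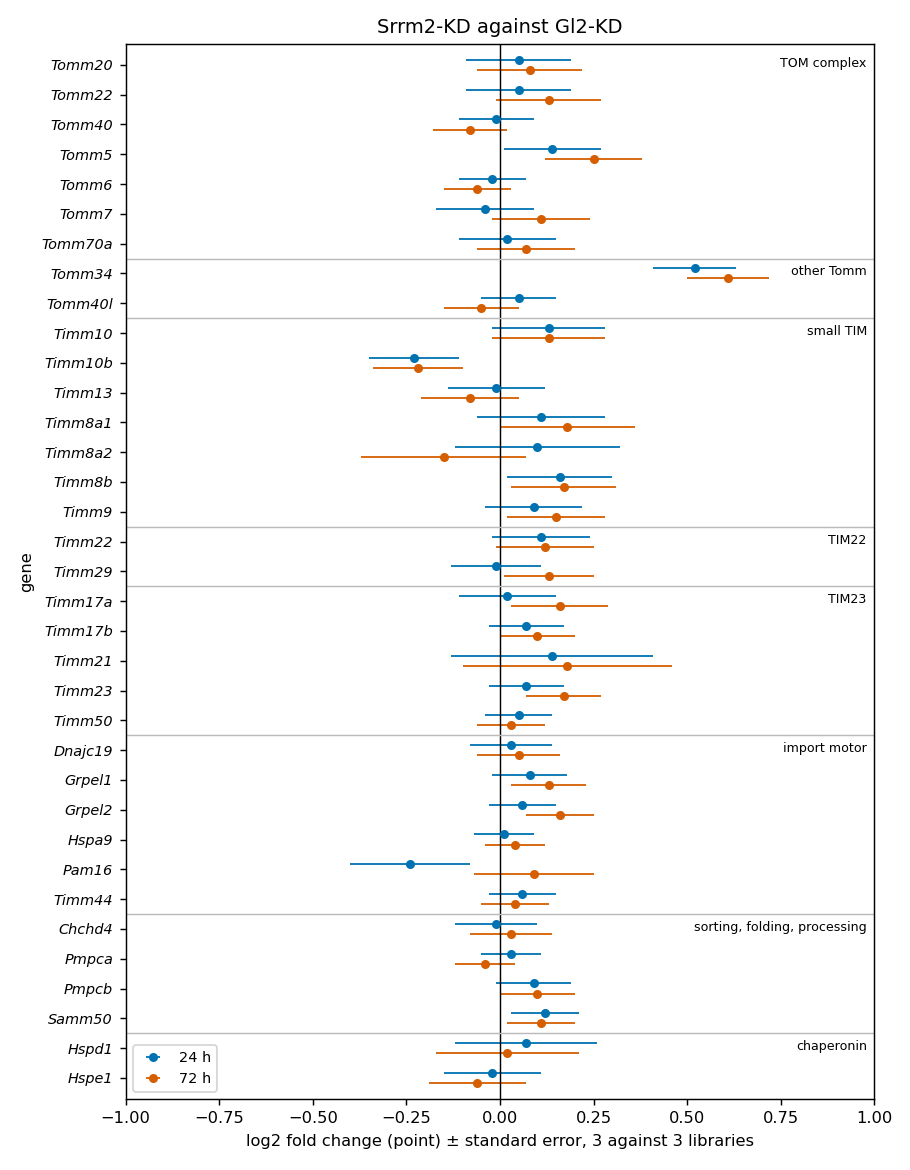
Points give the log2 fold change between siRNAs, Srrm2-KD relative to Gl2-KD, at each time for the 35 tested genes, grouped by role, and bars the standard error from the edgeR fit. *Tomm34* lies at 0.52 and 0.61 with bars clear of 0, and all other points are within 0.25 of 0.

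Over time in the control cells, *Grpel2* was higher at 72 h than at 24 h and the small TOM subunits *Tomm6* and *Tomm5* and *Tomm34* were lower, each in 3 of 3 experiments. None of these passed the test across all genes. The 72 h cells had also been transfected a second time and kept longer in serum-free medium, and these cannot be told apart from time itself. With edgeR, 0 of 35 members were called for 72 h against 24 h in Gl2-KD, while 1.45% of all genes were. At an unadjusted p below 0.05 there were 4 members (1 higher, 3 lower) against 16.8% of all genes, and DESeq2 called 0 members against 8.16%. The members' median was 0.02, the same as over all genes, with 9 higher in 3 of 3 experiments (20.2%), 4 lower in 3 of 3 (16.2%) and 0 with groups that did not overlap (7.27%).

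*Grpel2*, one of the exchange factors that reset the matrix Hsp70, was at 40.4, 38.5 and 49.4 CPM at 24 h and at 43.4, 50.0 and 60.1 CPM at 72 h in Gl2-KD. Every experiment rose a little, with overlap between the groups, for a log2 fold change of 0.25 ± 0.09 (adjusted p = 0.197, edgeR). *Tomm6* went from 82.1, 164 and 148 to 73.5, 121 and 139 CPM (-0.23 ± 0.09, adjusted p = 0.228). *Tomm5* went from 55.5, 114 and 91.5 to 54.3, 77.3 and 69.4 CPM (-0.32 ± 0.13, adjusted p = 0.231), a difference that experiment 1 hardly showed. *Tomm34* had a log2 fold change of -0.26 ± 0.11 (adjusted p = 0.248). *Timm21* (-0.53 ± 0.28), *Timm44* (0.17 ± 0.09), *Hspe1* (0.23 ± 0.13) and *Pam16* (0.26 ± 0.16) had adjusted p from 0.373 to 0.458.

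The chaperonin gene *Hspd1* did not move together across experiments. In Gl2-KD it went from 1140.0 to 1432 CPM in experiment 1, from 1654 to 1793 in experiment 2 and from 1297 down to 828 in experiment 3. In Srrm2-KD the same experiments went from 1069 to 1291, from 1734 to 1845 and from 1477 down to 969 CPM. Its partner *Hspe1* went from 279.9 to 412, from 524 to 613 and from 543 to 513 CPM in Gl2-KD. The ratio of *Hspe1* to *Hspd1* counts within a library ranged from 0.246 (Gl2-KD at 24 h, experiment 1) to 0.619 (Gl2-KD at 72 h, experiment 3), with a median of 0.322. The libraries of experiment 1 had ratios of 0.246 to 0.287, and those of experiments 2 and 3 had 0.308 to 0.619. The fall in experiment 3 was present under both siRNAs, and neither gene was called over time.

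Among other pairs within a library, described without a test, *Timm17a* had 1.42 to 2.74 counts for each of its paralogue *Timm17b*, and *Grpel1* 1.90 to 3.70 for each of *Grpel2*. *Tomm40* had 3.59 to 6.09 for each of *Tomm40l*, *Pmpca* 1.43 to 2.28 for each of *Pmpcb*, and *Timm8a1* 1.05 to 2.06 for each of *Timm8b*. The 4 libraries of experiment 1 had *Pmpca* to *Pmpcb* ratios of 2.22 to 2.28, and the other 8 had 1.43 to 1.94. These peptidase subunits form a heterodimer, and *Pmpca* is the one whose level in experiment 1 was close to that in the others.

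In Srrm2-KD cells the motor genes *Grpel2* and *Pam16* were higher at 72 h than at 24 h and *Tomm6* was lower, each in 3 of 3 experiments. With edgeR, 0 of 35 members were called, against 0.551% of all genes, with 3 members (2 higher, 1 lower) at an unadjusted p below 0.05 against 16.3%. DESeq2 called 2 members, *Grpel2* and *Pam16*, against 6.62% of the genes it tested. The members' median log2 fold change was 0.04, beside 0.00 over all genes, with 5 higher in 3 of 3 experiments (16.2%), 2 lower in 3 of 3 (16.6%) and 0 with groups that did not overlap (7.48%).

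*Grpel2* was at 39.7, 41.5 and 52.7 CPM at 24 h and at 47.1, 58.0 and 65.9 CPM at 72 h in Srrm2-KD. Each experiment was higher at 72 h, and the log2 fold change was 0.35 ± 0.09 (adjusted p = 0.110 in edgeR and 0.0143 in DESeq2). *Pam16*, which with *Dnajc19* regulates the ATPase activity of the motor, went from 8.66, 12.4 and 22.1 to 11.4, 26.9 and 26.5 CPM, with log2 ratios of 0.39, 1.12 and 0.26 in the single experiments. Its log2 fold change was 0.59 ± 0.16 (adjusted p = 0.118 in edgeR and 0.0156 in DESeq2), and experiment 2 gave most of it.

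The *Pam16* call rested on how reads were shared with a copy. *Gm9803*, a gene on chromosome 10, carries an identical stretch of 534 bases of the *Pam16* transcript, and its estimated count was 35.3% to 114% of that of *Pam16* in a library. Added together, both were at 17.2, 26.5 and 31.0 CPM at 24 h and at 18.6, 36.4 and 36.2 CPM at 72 h in Srrm2-KD. The log2 fold change of the sum was 0.27 ± 0.10, with an adjusted p of 0.221 in edgeR and 0.111 in DESeq2. The division of reads between these genes is thus uncertain, and the value of *Pam16* alone with it. At 24 h, the difference of *Pam16* between siRNAs went from -0.24 to -0.10 with the copy added.

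*Tomm6* went from 84.4, 152 and 149 to 69.9, 132 and 119 CPM in Srrm2-KD (-0.27 ± 0.09, adjusted p = 0.181, edgeR), much as it did in Gl2-KD. *Tomm40* (-0.22 ± 0.10), *Timm21* (-0.50 ± 0.28), *Timm17b* (0.18 ± 0.10), *Chchd4* (0.18 ± 0.11) and *Tomm34* (-0.18 ± 0.11) had adjusted p from 0.312 to 0.446. By role, the median change over time was -0.11 in Gl2-KD and -0.03 in Srrm2-KD for the TOM complex, 0.13 and 0.13 for the motor, and 0.10 and 0.09 for the sorting, oxidative folding and processing genes. It was 0.01 and -0.05 for the small TIM genes, -0.17 and -0.09 for TIM22, -0.05 and -0.00 for TIM23, and 0.09 and 0.05 for the chaperonin. In the motor, 4 of 6 genes were higher in 3 of 3 experiments under each siRNA, beside 20.2% of all genes in Gl2-KD and 16.2% in Srrm2-KD. These were *Grpel2*, *Timm44*, *Hspa9* and *Pam16*, the last with the uncertain value described above. In the TOM complex 2 of 7 were lower in 3 of 3 under each (16.2% and 16.6% of all genes). They were *Tomm6* and *Tomm5* in Gl2-KD, and *Tomm6* and *Tomm40* in Srrm2-KD.

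**Figure D5:**
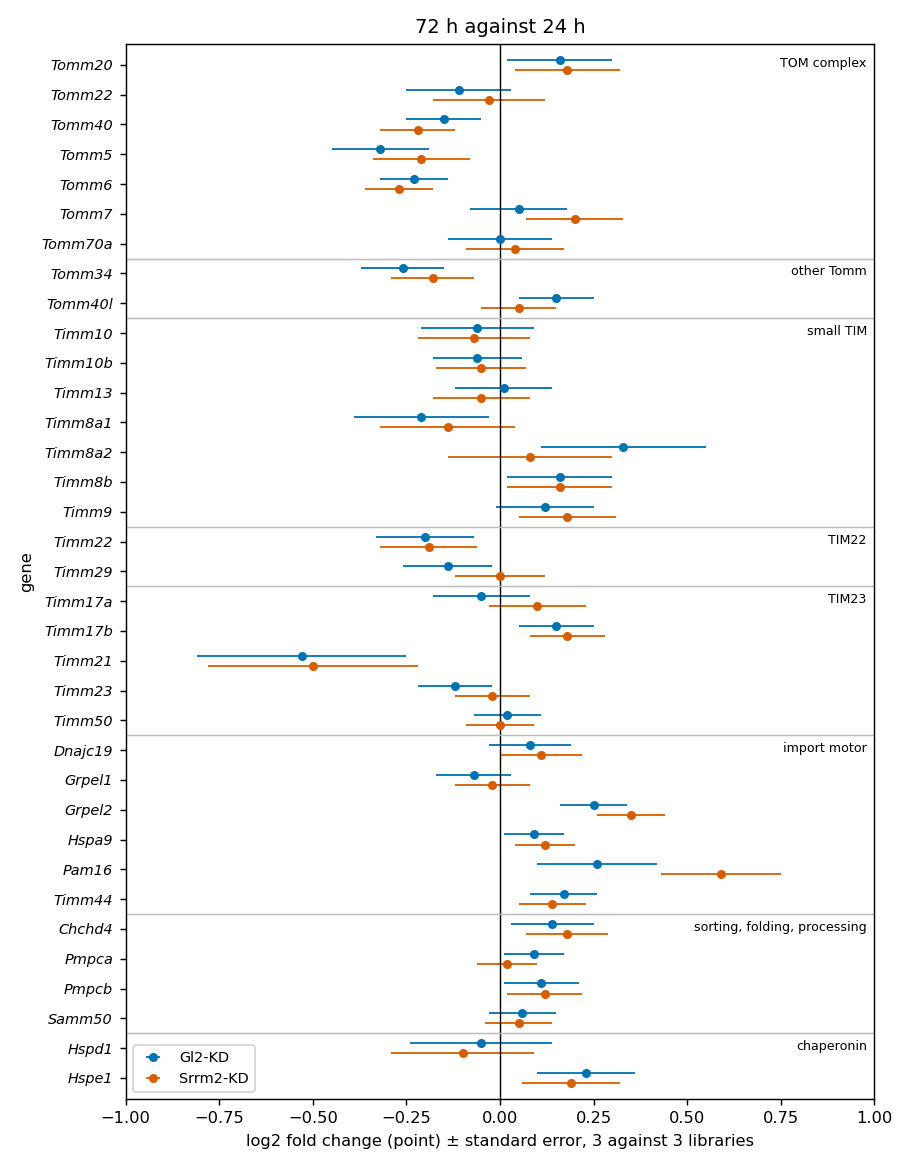
Points give the log2 fold change of 72 h against 24 h in Gl2-KD and in Srrm2-KD for the 35 tested genes, grouped by role, and bars the standard error. *Grpel2* lies above 0 and *Tomm6* below 0 under both siRNAs, and *Timm21*, the tested member with the lowest level, has the widest bars.

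Other genes of the pathway were counted in the same way, in short lists beside the share over all genes. Of 13 further import and insertion genes (sorting machinery partners, the oxidase *Gfer*, inner membrane insertases and presequence peptidases), 0 were called by edgeR in any comparison. At an unadjusted p below 0.05 there was 1 at 72 h between siRNAs (12.9% of all genes), 2 over time in Gl2-KD (16.8%) and 4 over time in Srrm2-KD (16.3%), of which 3 were higher and 1 lower. DESeq2 called 0, 1 and 1 of the list in these comparisons, beside 3.38%, 8.16% and 6.62% of the genes it tested. At 72 h the smallest p-values were those of *Gfer*, which was at most 0.342 CPM in any library and listed at 0 in 1, *Dnajc15* (0.27 ± 0.14) and *Immp1l* (0.25 ± 0.14). Over time in Gl2-KD they were those of *Immp2l*, an inner membrane peptidase subunit, *Mipep* (0.30 ± 0.12) and *Timmdc1* (0.30 ± 0.14). *Immp2l* went from 2.90, 2.32 and 6.17 to 5.13, 6.37 and 9.25 CPM (0.93 ± 0.22, adjusted p = 0.0650 in edgeR and 0.00133 in DESeq2), a rise in 3 of 3 experiments.

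Of 10 mitochondrial proteases and folding factors, 0 were called by edgeR. At an unadjusted p below 0.05 there was 1 in each of the same 3 comparisons, beside 12.9%, 16.8% and 16.3% of all genes. DESeq2 called 1, 0 and 1, beside 3.38%, 8.16% and 6.62% of the genes it tested. *Htra2*, a protease of the intermembrane space, was at 21.2, 27.6 and 29.7 CPM in Gl2-KD and 15.7, 20.4 and 22.9 CPM in Srrm2-KD at 72 h. It was lower in 3 of 3 experiments, with a log2 fold change of -0.42 ± 0.11 (adjusted p = 0.180 in edgeR and 0.0347 in DESeq2). The matrix protease *Lonp1* (-0.17 ± 0.08) and the J-domain protein *Dnaja3* (-0.18 ± 0.09) were also lower in 3 of 3, and neither was called. Over time in Gl2-KD, *Oma1* (0.25 ± 0.12), *Htra2* (-0.20 ± 0.11) and *Trap1* (0.10 ± 0.10) had the smallest p-values.

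Of 12 regulators of nuclear genes for mitochondria, 11 were tested, and edgeR called 1, *Myc*, over time in Gl2-KD, beside 1.45% of all genes. In Gl2-KD it went from 49.6, 48.0 and 25.7 CPM at 24 h to 25, 12 and 5.10 CPM at 72 h. Its log2 fold change was -1.73 ± 0.25, lower in 3 of 3 experiments (edgeR adjusted p = 0.0144). A link between the level of *Myc* and those of the import genes was not tested. *Mycn* (-0.40 ± 0.13) and *Tfb2m*, a mitochondrial transcription factor (-0.33 ± 0.14), were not called. Over time in Srrm2-KD, edgeR called 0 of the 11 (0.551% of all genes) and DESeq2 1 (6.62% of the genes it tested). At 72 h between siRNAs, *Tfb2m* (0.38 ± 0.14), *Myc* (0.56 ± 0.24) and *Ppargc1b* (-0.38 ± 0.18) had the smallest p-values. Of the 11, 0 were called by edgeR (0% of all genes) or DESeq2 (3.38% of the genes it tested). At an unadjusted p below 0.05 there were 2, beside 12.9% of all genes.

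The 13 protein genes of the mitochondrial genome had a median log2 fold change between siRNAs of 0.22 at 24 h and 0.21 at 72 h, with 12 above 0 and 1 below 0 at each time, and 0 were called by edgeR or DESeq2. At an unadjusted p below 0.05 there were 5 at 24 h (2.62% of all genes) and 3 at 72 h (12.9% of all genes), all above 0. *mt-Nd3* (0.59 ± 0.21), *mt-Nd2* (0.27 ± 0.11) and *mt-Nd1* (0.22 ± 0.10) had the smallest p-values at 72 h. Over time in Gl2-KD these were *mt-Co1* (0.26 ± 0.09), *mt-Atp6* (0.25 ± 0.09) and *mt-Co3* (0.24 ± 0.15). These transcripts are cut from long shared precursors, so they are not independent of each other.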

How the data were processed

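PolyA+ RNA of 12 libraries was sequenced by the authors as stranded 100-bp paired-end reads and quantified with Kallisto 0.46.1 on GENCODE M24 mouse transcripts. The deposited values are estimated counts per gene and library, not normalized, of which 33.8% to 43.0% in a library were not whole (tolerance 1e-06). No source used here states how transcripts were summed to genes. Symbols, positions and lengths came from GENCODE M21 (GRCm38), which matched 42156 identifiers and not the other 294.

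Counts were rounded and analysed with edgeR 4.0.16 in R 4.3.3: filterByExpr (minimum count 10, minimum total 15), TMM, 1 fit of 12 libraries with group terms and the experiment as block, glmQLFit (legacy=TRUE) and glmQLFTest. The tests had 6 residual and 5.09 prior degrees of freedom, with a common biological coefficient of variation of 0.22. The authors used edgeR with the RNA processing day as covariate. Since no source used here assigns libraries to days, the experiment number stood in for it. With group means removed, the 18 pairs of libraries with the same experiment number had correlations across genes of 0.281 to 0.747, so the numbers pair the libraries. The 36 pairs that differed in both number and group had -0.628 to 0.231. Removing group means ties this second range to the first, so it is not separate evidence. DESeq2 1.42.0 and limma 3.58.1 (voom) were alternatives, with other scalings, filters, blocks and left-out libraries. The edgeR, DESeq2 and voom fits of the siRNA comparison at 72 h were also run on simulated counts. These had no differences between experiments, the same biological variation for every gene, and larger changes than any member showed. The simulation therefore cannot show how the fits perform on the real libraries.

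The members and lists were chosen with earlier results of these data known. Fold changes are given for the 8 members with the smallest p in each of the comparisons of siRNA and time, for 5 fixed members at 72 h, and for the 3 genes with the smallest p of each other list. For genes picked by p, the same direction in 3 of 3 experiments is tied to that choice and is not separate evidence. Other values, such as those of *Pmpca*, *Timm29* and *Stk4*, were chosen after the values were seen. Near-identical copies were genes matching a member's longest coding transcript over at least 150 bases at 95% identity or more (blastn), and adding their counts was an alternative chosen after seeing the data. Promoter windows came from RefSeq (GRCm38.p6), which had none for *Tomm7*, *Tomm40l*, *Timm21*, *Grpel2* and *Hspa9*.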

Additional observations from a re-analysis of the deposited data

How the results depend on the processing

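Of 920 alternative values for the 36 fold changes named (1 gene in 1 comparison each), 902 kept their direction and their side of the threshold, 8 were past it where the reported value was not, and 10 changed sign. Most of the 36 were named for a small p, which by itself favours a kept direction. All 10 sign changes fell on members fixed beforehand. These counts therefore do not describe the unnamed members, of which *Timm50* ranged from -0.05 to 0.11 between siRNAs at 24 h. The members called by DESeq2 were 1 at 24 h (*Tomm34*), 1 at 72 h (*Tomm34*) and 2 over time in Srrm2-KD (*Grpel2* and *Pam16*). Of the genes it tested, DESeq2 called 0.129%, 3.38% and 6.62% in these comparisons. At 72 h, 1 member (*Tomm34*) was also called without a filter on low counts (42 of 29168 genes called). It was called with its own block term for every combination of experiment and time (3.73% of all genes). A fit of the 6 libraries by themselves called it too (1.78%). Leaving out 1 library gave 0 to 1 members at 72 h, the 1 without Srrm2-KD at 24 h of experiment 1 (42 of 19921 genes called). The members' medians at 24 h were then 0.01 to 0.10. With 1 library or 1 whole experiment left out, the medians at 72 h between siRNAs ran from -0.01 to 0.13. Over time they ran from -0.05 to 0.08 in Gl2-KD and from -0.05 to 0.11 in Srrm2-KD. The cause of these changes was not tested. Signs changed for genes near 0 at 72 h when 1 library or 1 whole experiment was left out. The ranges were -0.21 to 0.21 for *Hspd1*, -0.18 to 0.05 for *Hspe1*, -0.01 to 0.08 for *Hspa9* and -0.11 to 0.21 for *Tomm20*.

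Without the replicate block 0 members were called in each comparison, and the members' medians were 0.05 at 24 h and 0.10 at 72 h between siRNAs, the same as with it. The standard errors of members were 0.08 to 0.28 on the log2 scale between siRNAs and over time, and 0.11 to 0.39 for the difference between the siRNA effects.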

Other observations

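Copies of member transcripts were few. Of the 36 genes, 8 had another gene with a near-identical stretch of at least 150 bases, and for *Pam16* and *Timm8a1* these copies held over 5% of the member's counts. *Timm8a1*, a small TIM gene on the X chromosome, has a processed copy, *Gm9797*, with 14.3% as many counts, and with the copy added its log2 fold change at 72 h between siRNAs was 0.17 ± 0.17. The 3 copies of *Tomm20* held 4.66% and the 5 copies of *Timm23* 3.45% as many counts as the member, and those of *Hspd1*, *Timm17a*, *Dnajc19* and *Tomm7* under 0.1%. The share of counts given to copies of *Timm23* ranged from 0% to 13.8% between libraries. In 24 of the 36 members another annotated gene overlaps the locus, and in 18 of them it is a protein-coding gene.

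For 2 of these overlapping genes the values were as follows. *Glis2*, which spans most of *Pam16* on the other strand (8461 bases), had log2 fold changes of -0.39 ± 0.14 at 72 h between siRNAs and -0.46 ± 0.14 over time in Srrm2-KD, while *Pam16* had 0.09 ± 0.16 and 0.59 ± 0.16. *Usp49*, which overlaps *Tomm6* by 93 bases, had -0.44 ± 0.14 at 72 h between siRNAs, while *Tomm6* had -0.06 ± 0.09. None of these was called by edgeR (adjusted p from 0.152 to 0.292 for the overlapping genes).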
